A study of Homo sapiens with 4 samples.

Results

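The genes described here encode the cytoplasmic initiation and elongation factors of protein synthesis, together with the kinases that phosphorylate eIF2, the eIF2B exchange factor, the 4E-binding proteins and the eEF2 kinase. They were chosen by name, as 51 of the 58735 genes listed, with earlier results of these data known. Of them, 50 reached at least 1 FPKM (fragments relative to exon length and library size) in at least 1 library, as did 13678 genes in all. The cells were OMM2.3, an established human line of uveal melanoma, and 4 RNA-seq libraries were made, 1 per group. The groups were cells given CCCP and DHA together, cells given CCCP, cells given DHA, and control cells, all grown in medium with 10% fetal bovine serum. CCCP is a protonophore that collapses the mitochondrial membrane potential. The abbreviation DHA is kept as the labels write it, since they do not expand it. Dose, length of treatment and vehicle were not stated in the sources used here. With 1 library per group there was no spread between replicates, so no difference between 2 libraries was tested, and the 95% exact intervals given with ratios cover counting error only.

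Initiation begins when eIF2, bound to GTP, brings the initiator methionine tRNA to the small ribosomal subunit together with eIF1, eIF1A, eIF5 and the large scaffold eIF3. The cap-binding protein eIF4E, the scaffold eIF4G and the helicase eIF4A recruit that subunit to the mRNA, and the 4E-binding proteins block eIF4E when they are not phosphorylated. Kinases that sense unfolded proteins, amino acid shortage, double-stranded RNA or heme and mitochondrial stress phosphorylate eIF2, which then inhibits its exchange factor eIF2B and lowers general translation while mRNAs such as ATF4 are translated more. Elongation is driven by eEF1A, which delivers aminoacyl-tRNA, and by eEF2, which moves the ribosome along. Many mRNAs of this machinery start with a C followed by a run of pyrimidines, the 5′ terminal oligopyrimidine motif, through which mTOR and LARP1 control their translation and stability. Only mRNA levels were measured here, not phosphorylation, protein or ribosome occupancy.

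Reads recovered from the FPKM summed to between 16900411 and 18937286 per library. Melanocyte lineage markers were sparse, as 6 of 14 were measured and EDNRB, KIT, PAX3 and TYR were at 0 in all 4 libraries, so the labelled cell type is taken from the labels. None of 6 leukocyte or 4 endothelial markers was measured, while 3 of 8 fibroblast markers and 3 of 6 epithelial markers were. The summed fibroblast markers were at 8.99 FPKM in the CCCP plus DHA library, 20.3 with CCCP, 18.6 with DHA and 32.6 in control, and the summed epithelial markers were at 269.9, 301, 348 and 378 FPKM in the same libraries. Among short-lived transcripts, which respond to RNA handling, 10 were measured, of which 4 were at least 1.5-fold higher and 2 at least 1.5-fold lower in the CCCP plus DHA library than in control. These are 40% and 20%, beside 11.1% and 12.7% of all measured genes. The part of these shifts in the results below was not tested, and fewer cells of a kind and less RNA per cell cannot be told apart in bulk RNA.

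Translation factor transcripts were higher in the CCCP plus DHA library than in control as a group. Of the 50 measured genes, 37 (74%) lay above control and 13 below, while 50.7% of all measured genes lay above. The median log2 ratio of the 50 was 0.31, beside 0.01 over all 13678 measured genes. At a ratio of at least 1.5-fold, 16 members (32%) were higher, beside 11.1% of all measured genes, and 2 members (4%) were lower, beside 12.7%. All members are protein-coding, and of the 10896 measured protein-coding genes 7.72% were 1.5-fold higher and 10.4% lower. The 4 members at least 2-fold higher were EIF3C, EIF1, EIF2S2 and EIF4EBP1, beside 4.52% of all genes, and no member was 2-fold lower, beside 5.44%. The members together held 4.14% of all reads in the CCCP plus DHA library, 3.10% with CCCP, 3.23% with DHA and 2.55% in control. Without EEF1A1 and EEF2, which supply most of those reads, the shares were 1.27%, 0.977%, 1.08% and 0.968% in the same libraries.

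The 4 libraries were not ordered alike for every member. The CCCP plus DHA library was the highest of the 4 for 32 of the 50 members (64%) and for 33.8% of all measured genes. Control was the lowest for 26 members (52%) and for 25.2% of all measured genes. CCCP alone was the lowest library for 12 members (24%), near the 26.3% of all measured genes, among them EIF1AX, EIF5, EIF3J, EIF6 and EIF4EBP1. The combination was the lowest for 9 members (18%), among them EIF4EBP2, EIF2AK3, EIF5A and EIF4E2, and for 33.3% of all measured genes.

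**Figure D1:**
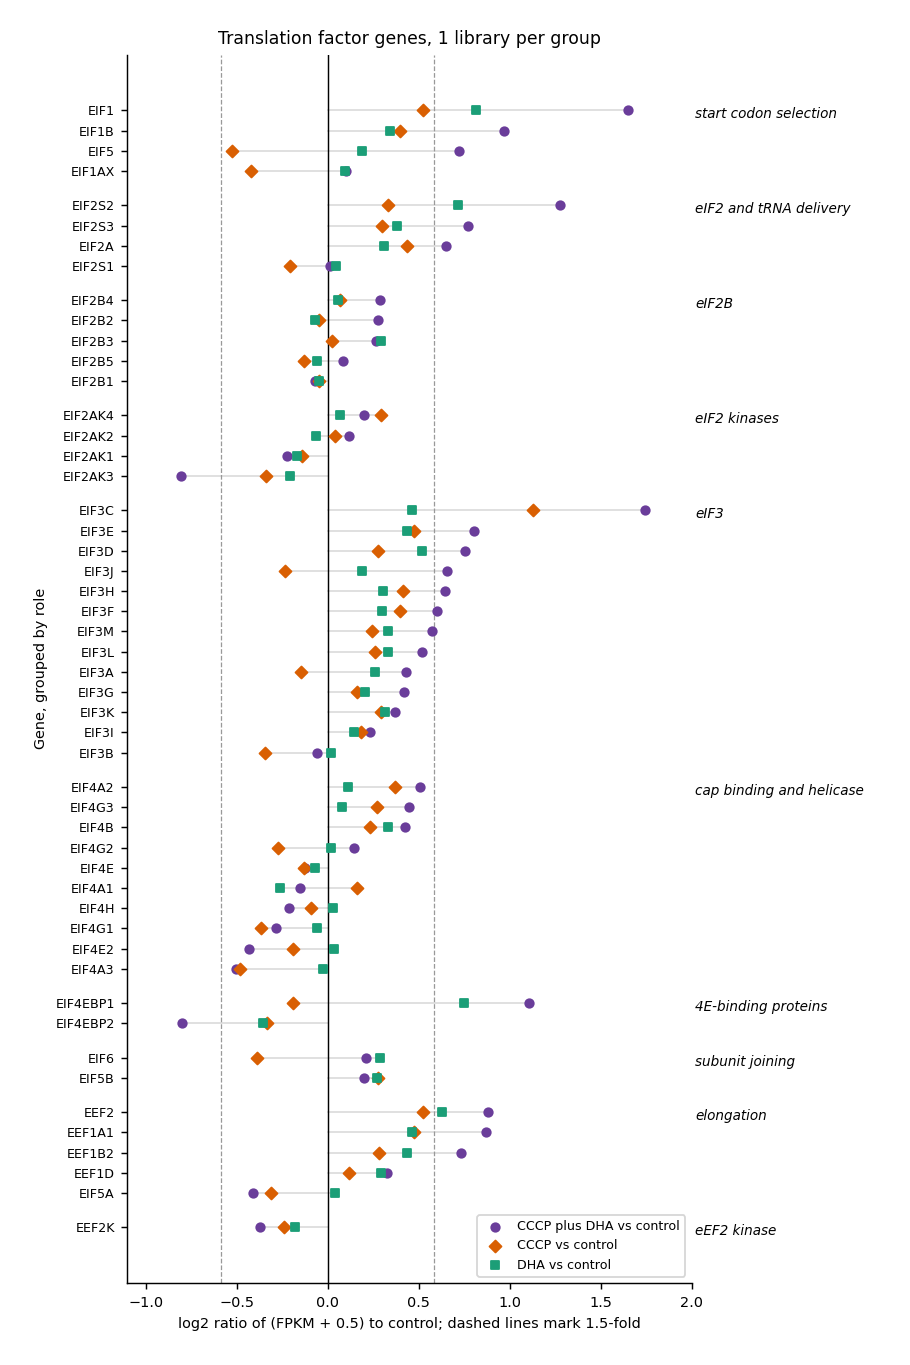
Each row is 1 measured gene, grouped by role, and the x axis gives its log2 ratio of (FPKM + 0.5) to control for CCCP plus DHA (circles), CCCP (diamonds) and DHA (squares). Start codon selection, eIF2, eIF3 and elongation genes lie mostly right of 0 with CCCP plus DHA, while cap binding genes lie on both sides between -0.51 and 0.50.

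The factors that select the start codon included the member with the largest ratio among those averaging at least 5 FPKM. EIF1, whose protein keeps the scanning ribosome from pausing at wrong codons, was at 262 FPKM in the CCCP plus DHA library, 120.1 with CCCP, 147 with DHA and 83.3 in control. The CCCP plus DHA to control ratio was 3.15 (95% interval 3.05 to 3.24), placing it at the 98.3rd percentile of all measured genes. Its close paralogue EIF1B, at 25.7, 17.1, 16.5 and 12.9 FPKM in the same libraries, had a ratio of 1.99 (1.78 to 2.23). Both genes were lowest in control and highest with CCCP plus DHA. EIF1 over EIF1B was 10.2 in the CCCP plus DHA library, 7.01 with CCCP, 8.90 with DHA and 6.46 in control.

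EIF5, the GTPase-activating partner of eIF2 that acts against EIF1 in start codon choice, had another order. It was at 47.6 FPKM in the CCCP plus DHA library, 19.7 with CCCP, 32.6 with DHA and 28.6 in control. CCCP alone was thus below control, with a ratio of 0.688 (0.657 to 0.721), and CCCP plus DHA was above it, with a ratio of 1.66 (1.60 to 1.73). EIF1AX, which encodes eIF1A and is a gene recurrently mutated in uveal melanoma, was at 27.5, 19.0, 27.3 and 25.6 FPKM in the CCCP plus DHA, CCCP, DHA and control libraries. The only library that stood well away from the others for EIF1AX was CCCP alone, with a ratio to control of 0.741 (0.692 to 0.792). The EIF1 to EIF5 ratio of FPKM was 5.51 with CCCP plus DHA, 6.10 with CCCP, 4.50 with DHA and 2.91 in control, so it was lowest in control.

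The 3 subunits of eIF2 did not share 1 pattern. EIF2S2, the beta subunit, was at 111 FPKM in the CCCP plus DHA library, 57.3 with CCCP, 75.0 with DHA and 45.5 in control, a CCCP plus DHA to control ratio of 2.44 (2.32 to 2.56). EIF2S3, the gamma subunit that binds GTP and tRNA, was at 118, 85.2, 90.1 and 69.1 FPKM, with a ratio of 1.71 (1.65 to 1.77). EIF2S1, the alpha subunit that the stress kinases phosphorylate, was at 18.2, 15.6, 18.6 and 18.0 FPKM. Its CCCP plus DHA to control ratio was 1.01, with an interval of 0.945 to 1.07 that includes 1, so no difference was detectable at this depth. EIF2A, a separate initiator tRNA-binding protein, was at 62.6, 54.0, 49.3 and 39.7 FPKM in the CCCP plus DHA, CCCP, DHA and control libraries, with a ratio of 1.58 (1.51 to 1.65). In this role, 3 of 4 genes were therefore at least 1.5-fold higher with CCCP plus DHA than in control, beside 11.1% of all measured genes.

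Genes of the eIF2B exchange factor differed little. None of the 5 subunits was 1.5-fold higher or lower in any of the 3 comparisons with control, and their log2 ratios of CCCP plus DHA to control ran between -0.07 and 0.29. EIF2B1 was the most abundant, at 14.0 FPKM with CCCP plus DHA, 14.2 with CCCP, 14.2 with DHA and 14.7 in control. The catalytic subunit EIF2B5 was at 10.1, 8.67, 9.10 and 9.51 FPKM in the same libraries. EIF2B2 was at 6.43 FPKM with CCCP plus DHA, 5.03 with CCCP, 4.96 with DHA and 5.22 in control. EIF2B3 was at 5.23, 4.33, 5.34 and 4.26 FPKM, and EIF2B4 at 5.19, 4.38, 4.36 and 4.17 FPKM in the same libraries. The CCCP plus DHA to control ratios of these 3 lay between 1.23 and 1.245.

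Among the 4 eIF2 kinases, 1 stood lower. EIF2AK3, which encodes PERK, the kinase of the endoplasmic reticulum membrane, was at 2.69 FPKM in the CCCP plus DHA library, 3.90 with CCCP, 4.33 with DHA and 5.07 in control. The CCCP plus DHA to control ratio was 0.530 (0.455 to 0.617), from 252 reads in the CCCP plus DHA library and 536 in control. EIF2AK1, which encodes HRI, known in human cell lines to relay mitochondrial stress to eIF2, was at 22.6, 24.0, 23.4 and 26.4 FPKM in the same libraries. Its ratio of 0.855 (0.808 to 0.904) stayed within 1.5-fold. EIF2AK2, the double-stranded RNA kinase PKR, was at 9.73, 9.18, 8.52 and 8.93 FPKM, and EIF2AK4, the amino acid sensor GCN2, at 11.8, 12.6, 10.7 and 10.2 FPKM in the CCCP plus DHA, CCCP, DHA and control libraries. Neither was 1.5-fold from control in any library.

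Of the 13 subunits of eIF3, 12 were above control with CCCP plus DHA, with a median log2 ratio of 0.57. The 6 at least 1.5-fold higher were EIF3C, EIF3E, EIF3D, EIF3J, EIF3H and EIF3F, beside 11.1% of all measured genes. EIF3C has a limit given below. With libraries scaled to the same summed FPKM, 5 subunits were at least 1.5-fold higher. EIF3E was at 97.2 FPKM in the CCCP plus DHA library, 77.2 with CCCP, 75.3 with DHA and 55.5 in control, a CCCP plus DHA to control ratio of 1.75 (1.70 to 1.81). EIF3D, the subunit that can itself bind the cap of some mRNAs, was at 96.6, 69.4, 82.1 and 57.1 FPKM, with a ratio of 1.69 (1.63 to 1.76). Both were lowest in control. The 2 core subunits that organise the complex, EIF3A and EIF3B, lay lower in this order, with ratios of 1.35 (1.31 to 1.39) and 0.961 (0.922 to 1.002), and both were below control with CCCP alone, at 0.901 and 0.784.

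EIF3J, a loosely bound subunit that acts at the mRNA entry channel, had its libraries in the same order as EIF5. It was at 40.9 FPKM in the CCCP plus DHA library, 21.9 with CCCP, 29.4 with DHA and 25.8 in control. EIF3A shared this order, at 70.9, 47.4, 63.1 and 52.6 FPKM in the same libraries. EIF3C could not be read on its own. Its near-identical copy EIF3CL had 43, 39, 295 and 32 reads in the CCCP plus DHA, CCCP, DHA and control libraries, beside 518, 307, 178 and 127 for EIF3C. Summed, the pair had 561, 346, 473 and 159 reads, and ratios to control of 3.98 with CCCP plus DHA, 2.54 with CCCP and 3.36 with DHA. The pair was thus higher in each treated library than in control, but how reads were divided between the copies differed between libraries.

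The cap-binding and helicase genes were divided. None of the 10 was 1.5-fold higher or lower with CCCP plus DHA than in control, 4 lay above and 6 below, and the median log2 ratio was -0.14. These include EIF4A3 and EIF4A1, both below control, of which the first belongs to another complex and the second could not be read. Without them 4 of 8 lay above control, and the median was 0.01. EIF4A2, the second eIF4A helicase, was at 173 FPKM in the CCCP plus DHA library, 158 with CCCP, 132 with DHA and 122 in control, a CCCP plus DHA to control ratio of 1.42 (1.39 to 1.45). EIF4B, which stimulates the helicase, was at 167, 146, 156 and 124 FPKM in the same libraries, with a ratio of 1.35 (1.32 to 1.37). EIF4G1, the main scaffold, was at 69.6, 65.8, 81.3 and 84.8 FPKM, with a ratio of 0.821 (0.7998 to 0.842). EIF4A2 over EIF4G1 was 2.49 with CCCP plus DHA, 2.40 with CCCP, 1.62 with DHA and 1.44 in control, so the libraries with CCCP stood apart from those without.

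EIF4A3, a helicase of the exon junction complex that shares its fold with eIF4A, also differed between libraries with and without CCCP, in the other direction. It was at 16.1 FPKM with CCCP plus DHA and 16.4 with CCCP, against 22.7 with DHA and 23.1 in control. EIF4E, the cap-binding protein, was at 4.43, 4.41, 4.63 and 4.87 FPKM in the CCCP plus DHA, CCCP, DHA and control libraries, with a CCCP plus DHA to control ratio of 0.909 (0.838 to 0.986). EIF4E2, a cap-binding homologue that represses translation, was at 6.14, 7.36, 8.68 and 8.46 FPKM, with a ratio of 0.725 (0.661 to 0.795). EIF4H was at 132, 143, 156 and 153 FPKM, with a ratio of 0.863 (0.836 to 0.889).

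The pair of 4E-binding proteins lay at opposite ends of the members. EIF4EBP1 was at 153 FPKM in the CCCP plus DHA library, 62.0 with CCCP, 119 with DHA and 70.7 in control. It was high in both libraries with DHA, with ratios to control of 2.16 (2.03 to 2.31) for CCCP plus DHA and 1.69 (1.58 to 1.80) for DHA, and slightly below control with CCCP, at 0.876 (0.810 to 0.948). EIF4EBP2 was at 9.49 FPKM with CCCP plus DHA, 13.4 with CCCP, 13.1 with DHA and 16.9 in control, and its CCCP plus DHA to control ratio was 0.561 (0.523 to 0.601). The 2 genes encode inhibitors of the same protein, eIF4E. EIF4EBP1 over EIF4EBP2 was 16.1 with CCCP plus DHA, 4.64 with CCCP, 9.10 with DHA and 4.18 in control.

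**Figure D2:**
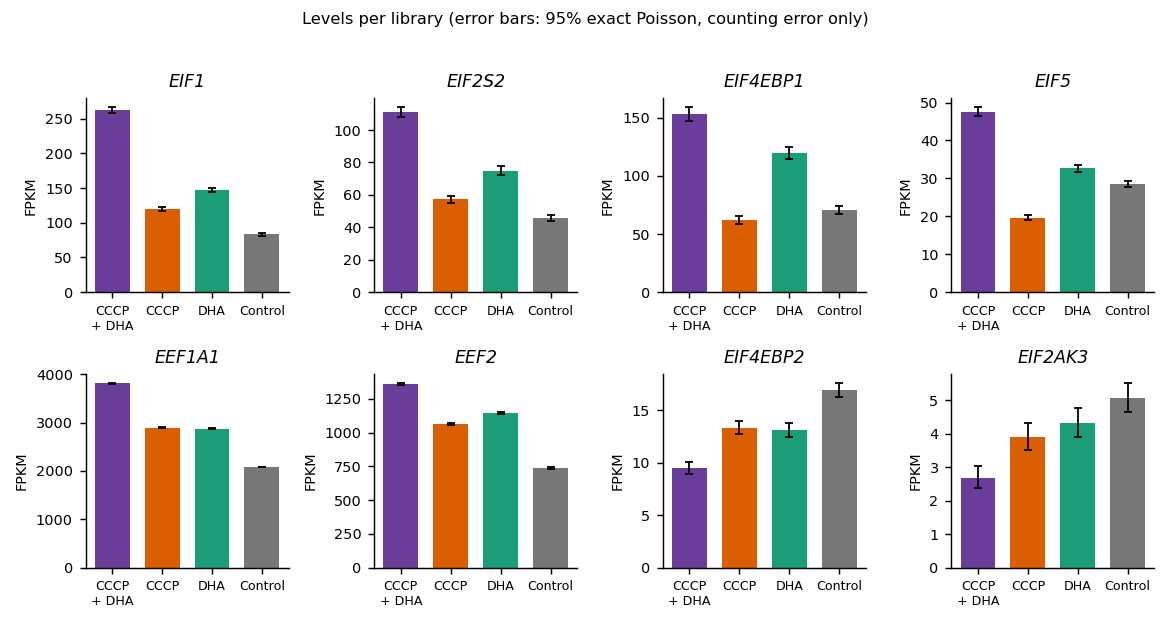
Bars give the FPKM of 8 genes in the CCCP plus DHA, CCCP, DHA and control libraries, on an axis that starts at 0, with 95% exact Poisson intervals for counting error only. EIF1, EIF2S2, EEF1A1 and EEF2 are lowest in control, EIF4EBP1 is high in both libraries with DHA, EIF5 is lowest with CCCP alone, and EIF4EBP2 and EIF2AK3 are highest in control.

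Elongation factors were the most abundant members and were mostly higher with both compounds. EEF1A1 was at 3809 FPKM in the CCCP plus DHA library, 2897 with CCCP, 2870.2 with DHA and 2081 in control, a CCCP plus DHA to control ratio of 1.83 (1.82 to 1.84). Its processed pseudogene EEF1A1P5 was at 465 FPKM with CCCP plus DHA, 469 with CCCP, 354 with DHA and 255 in control, and some reads of near-identical copies may be divided between them. EEF2 was at 1359, 1061, 1144 and 738 FPKM in the same libraries, with a ratio of 1.84 (1.82 to 1.86). EEF1A1 over EEF2 stayed between 2.51 and 2.82 in all 4 libraries. EEF1B2, the nucleotide exchange subunit for eEF1A, was at 248, 181, 201 and 149 FPKM in the CCCP plus DHA, CCCP, DHA and control libraries, with a ratio of 1.67 (1.61 to 1.72).

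EEF1D, a further exchange subunit, was at 15.4, 13.2, 15.0 and 12.1 FPKM in the same libraries, with a ratio of 1.27 (1.20 to 1.34).

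EIF5A and the eEF2 kinase lay below control with CCCP plus DHA. EIF5A, which carries the hypusine residue and helps ribosomes past proline stretches, was at 103 FPKM in the CCCP plus DHA library, 109.9 with CCCP, 141 with DHA and 137 in control. It was low in both libraries with CCCP, with a CCCP plus DHA to control ratio of 0.752 (0.726 to 0.780). EEF2K, the kinase that inhibits eEF2, was at 4.61, 5.08, 5.33 and 6.10 FPKM in the CCCP plus DHA, CCCP, DHA and control libraries, with a ratio of 0.756 (0.683 to 0.836). EEF2 and its kinase thus stood on opposite sides of control in each treated library. Among the genes that act for or against subunit joining, EIF6 was at 48.2, 31.6, 50.7 and 41.5 FPKM in the same libraries, lowest with CCCP alone. EIF5B was at 14.8, 15.7, 15.7 and 12.9 FPKM in those libraries.

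EEF1G, another exchange subunit, was not measured: it was listed at 0 in all 4 libraries, and 99.9% of its exon length is shared with the overlapping gene AP002990.1. EIF4A1, which encodes the main eIF4A helicase, was at 1.06 FPKM with CCCP plus DHA, 1.43 with CCCP, 0.939 with DHA and 1.23 in control, from 86 to 127 reads, and 48.6% of its exon length is shared with other annotated genes including SENP3-EIF4A1. Neither value can be read as the level of its factor. Overlap with other genes also covered 51.8% of the exons of EIF3L and 34% of those of EEF1D.

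The members were also split by the first bases of their transcripts. In RefSeq promoter sequences for GRCh38.p14, 42 members had an entry, and EIF2S2, EIF2AK1, EIF3A, EIF3E, EIF3G, EIF3H, EIF3L, EIF4EBP1 and EEF1D had none. A start was counted as a pyrimidine run when the base at the annotated start was C and at least 4 further bases, on the coding strand, were C or T, a rule chosen after the values were seen. It was met by at least 1 start of 11 of the 42 members (26.2%), and of 7.68% of the 9010 measured genes in the table. Over single starts it was met by 4.07% of all 35116 entries. The windows below show 10 bases before and 20 bases from the start, 5′ to 3′ on the coding strand, with the run in capitals. EEF1A1 (chr6:73521013-73521042, minus strand), EEF1B2 (chr2:206159885-206159914, plus strand), EEF2 (chr19:3985444-3985473, minus strand), EIF2S3 (chrX:24054946-24054975, plus strand), EIF3D (chr22:36529147-36529176, minus strand) and EIF4B (chr12:53006446-53006475, plus strand) are shown for the run. EIF1 (chr17:41688875-41688904, plus strand) and EIF4EBP2 (chr10:70404135-70404164, plus strand) are shown as the highest and lowest well covered members in the table without one.
EEF1A1: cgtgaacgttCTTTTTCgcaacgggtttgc
EEF1B2: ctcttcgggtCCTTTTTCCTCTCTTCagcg
EEF2: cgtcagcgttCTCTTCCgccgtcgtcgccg
EIF2S3: gatttccttcCTCTTTTggcaacatggcgg
EIF3D: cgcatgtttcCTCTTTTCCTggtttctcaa
EIF4B: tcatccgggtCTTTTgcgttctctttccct
EIF1: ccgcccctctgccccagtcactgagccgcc
EIF4EBP2: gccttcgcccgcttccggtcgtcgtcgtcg

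The 11 members with a run were EEF1A1, EEF1B2, EEF2, EIF2A, EIF2S3, EIF3D, EIF3F, EIF3K, EIF3M, EIF4A2 and EIF4B. All 11 lay above control in the CCCP plus DHA library, in a narrow band of log2 ratios between 0.37 and 0.88 with a median of 0.65. Of them, 7 were at least 1.5-fold higher, beside 11.1% of all measured genes, and 6 were with libraries scaled to the same summed FPKM. The 30 measured members without a run had a median of 0.11 and spread between -0.80 and 1.74, with 18 above control. Of these, EIF1, EIF1B and EIF3C lay above every member with a run. The 30 also hold all eIF2B subunits and the eIF2 kinases with an entry, so the groups also differ in role. EIF2S2, EIF4EBP1, EIF3E and EIF3H, each at least 1.5-fold higher, had no entry and are in neither group. With CCCP alone the medians were 0.30 for members with a run and -0.13 for those without, and with DHA alone they were 0.33 and 0.04. These are descriptions with no test. The 633 other measured genes with such a start had a median log2 ratio of CCCP plus DHA to control of 0.09, with 60.5% above 0, beside -0.00 for 8269 genes without one. Ribosomal protein genes had medians of 0.66 for 48 with a run and 0.53 for 20 without.

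**Figure D3:**
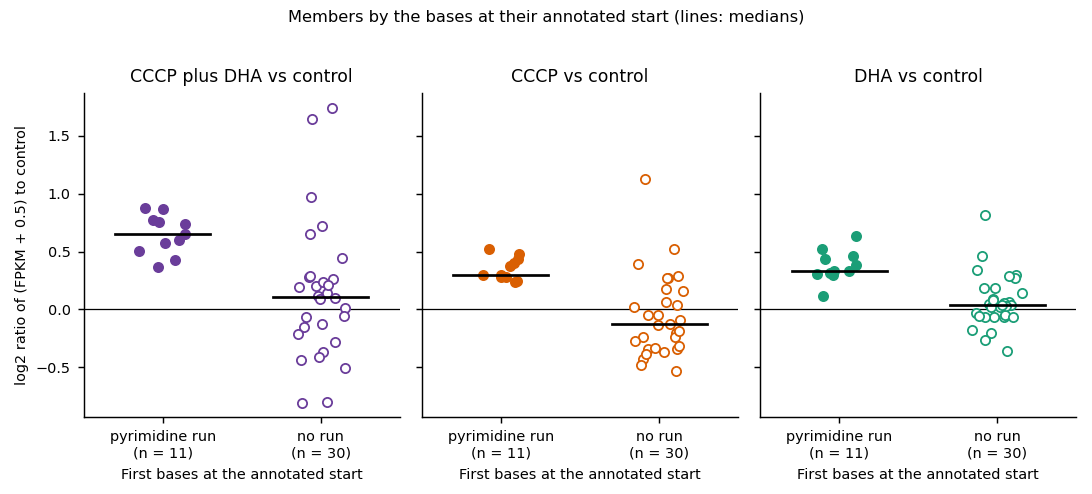
Each point is 1 member, with its log2 ratio of (FPKM + 0.5) to control on the y axis, for CCCP plus DHA, CCCP and DHA, split into 11 members whose annotated start is a pyrimidine run and 30 whose start is not. Lines mark medians, which with CCCP plus DHA are 0.65 and 0.11, and every point with a run lies above 0.

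Motifs of other regulators were counted in the same promoter entries, on both strands, over 250 bases before the start and 50 bases from it. The 9 members without an entry, among them EIF2S2, EIF3E and EIF4EBP1, could not be searched. The ATF4 and C/EBP composite element TGATGNAAN was in none of the 42 members and in 2.46% of measured genes with an entry, counted at any start. A share this low gives few matches in 42 genes, so their absence cannot be read as a lack of such sites. The E-box CACGTG, bound by MYC and related factors, was in 11 members (26.2%), among them EIF1B, EIF3F, EIF4B, EIF4G1 and EIF4A3, which lie on both sides of control, and in 12.9% of measured genes with an entry. MYC itself was at 103 FPKM in the CCCP plus DHA library, 62.9 with CCCP, 78.1 with DHA and 63.0 in control. A motif match is a string of letters in a window, and binding was not measured.

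With CCCP alone the members lay close to control. Their median log2 ratio was 0.09, beside 0.00 for all measured genes. When each library was scaled to the same summed FPKM, it was -0.01, beside -0.10 for all measured genes. The 1 member at least 1.5-fold higher was EIF3C, with the limit given above, beside 7.84% of all measured genes, and none was 1.5-fold lower, beside 6.46%. Of protein-coding genes, 3.7996% were higher and 3.45% lower. EIF3C was also the 1 member at least 2-fold higher, beside 3.21% of all genes, and none was 2-fold lower, beside 2.32%. The highest well covered members were EIF1 at a log2 ratio of 0.53, EEF2 at 0.52, EEF1A1 at 0.48 and EIF3E at 0.47. The lowest were EIF5 at -0.53, EIF4A3 at -0.48, EIF1AX at -0.42 and EIF6 at -0.39.

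With DHA alone the median was 0.19, beside 0.00 for all measured genes. Above control were 38 of 50 members (76%), beside 49.9% of all measured genes. With libraries scaled to the same summed FPKM, the median was 0.09, beside -0.09 for all measured genes, and 28 members were above control. EIF1, EIF4EBP1, EIF2S2 and EEF2 were at least 1.5-fold higher, which is 4 members (8%) beside 4.43% of all measured genes. None was 1.5-fold lower, beside 4.15%. Of protein-coding genes, 1.23% were higher and 0.817% lower. No member was 2-fold higher or lower, beside 2% and 1.86% of all genes. The lowest well covered members were EIF4EBP2 at a log2 ratio of -0.36, EEF2K at -0.18 and EIF2AK1 at -0.17. The CCCP and DHA comparisons share their control library, so their values are set side by side without a measure of likeness.

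Set against the single compounds, the combination was higher than CCCP alone by at least 1.5-fold for 7 members (14%), beside 8.87% of all measured genes, and lower for none, beside 12.4%. Of protein-coding genes, 6.06% were higher and 9.33% lower. These 7 were EIF4EBP1, EIF5, EIF1, EIF2S2, EIF3J, EIF3C and EIF6. The first 3 of them were at least 2-fold higher, beside 3.46% of all genes, and none was 2-fold lower, beside 4.94%. Against DHA alone, 3 members (6%) were at least 1.5-fold higher, EIF3C, EIF1 and EIF1B, beside 7.64% of all genes. EIF2AK3 alone was 1.5-fold lower, beside 9.38%, and it was within 1.5-fold when libraries were scaled to the same summed FPKM. Of protein-coding genes, 3.99% were higher and 6.95% lower. EIF3C alone was 2-fold higher, beside 3.27%, and none was 2-fold lower, beside 3.63%. With the reads of EIF3CL and other near-identical copies added, EIF3C left both of these sets, and the counts at least 1.5-fold higher were 6 against CCCP and 2 against DHA. EIF1 was thus higher with CCCP plus DHA than with either compound, with ratios of 2.18 to CCCP and 1.79 to DHA.

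For most members the combination lay near the sum of the single-compound log2 ratios. The departure, which is the log2 ratio of CCCP plus DHA to control minus the sum of the log2 ratios of CCCP and of DHA to control, had a median of 0.02 over the members and of -0.00 over all measured genes. EIF5 and EIF3J were at least 1.5-fold above the sum, beside 8.67% of all measured genes, and no member was 1.5-fold below it, beside 11.2%. With libraries scaled to the same summed FPKM, 4 members were at least 1.5-fold above the sum, beside 13.7% of all measured genes. With near-identical copies added, EIF3C was 1.5-fold below it. The departure was 1.07 for EIF5 with a counting standard error of 0.04, and 0.70 for EIF3J with one of 0.07. EIF4EBP1 followed at 0.55 and EIF1AX at 0.43, and the lowest were EIF5B at -0.35, EIF4E2 at -0.28 and EEF2 at -0.27. EIF3K, at 65.9 FPKM with CCCP plus DHA, 62.6 with CCCP, 63.5 with DHA and 50.9 in control, was next at -0.24. In EIF5, EIF3J, EIF4EBP1 and EIF1AX, CCCP alone was below control, as it was for 22 of the 50 members. The departure subtracts the CCCP log2 ratio, so a low value with CCCP alone raises it by definition.

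**Figure D4:**
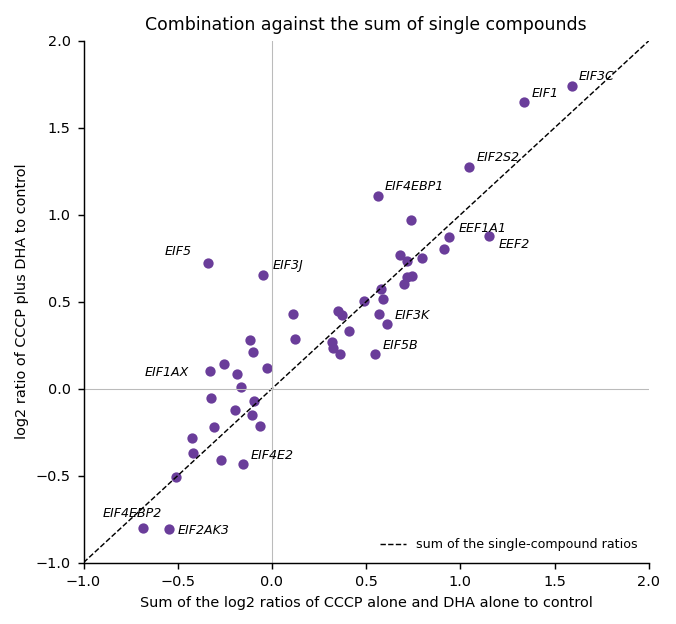
Each point is 1 of the 50 measured members, with the sum of the log2 ratios of CCCP alone and DHA alone to control on the x axis and the log2 ratio of CCCP plus DHA to control on the y axis. The dashed line marks equality; EIF5 and EIF3J lie 1.07 and 0.70 above it, and EIF5B lies 0.35 below it.

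An additive fit over all 4 libraries, with limma-trend and Benjamini-Hochberg adjustment over all 13678 genes, had the departure from additivity as its 1 residual degree of freedom. No member passed an adjusted p of 0.05 for CCCP, where 0.0366% of all genes were called higher and 0.0585% lower, or for DHA, where 0.095% were called higher and 0.00731% lower. At an unadjusted p under 0.05, 8 members were higher and 3 lower for CCCP, beside 6.88% and 7.59% of all genes. For DHA, 13 were higher and 1 lower, beside 5.51% and 6.62%. The smallest adjusted p from limma-trend was 0.0980 for EIF3C with CCCP, at a log2 effect of 1.20 ± 0.18 (SE), and 0.206 for EIF1 with DHA, at 0.97 ± 0.18. With limma-voom on the recovered reads, 2 members passed for CCCP, EIF1 and EIF3C, both higher, and EIF3C has the limit given above. Over all 13678 genes, 297 were called higher and 388 lower for CCCP. For DHA, 4 members passed, EIF1, EIF5, EIF2S2 and EIF4EBP1, all higher, beside 232 genes higher and 301 lower. EIF5 had the largest departure from additivity among the members, at 1.07. Its DHA term averages unlike ratios, 1.14 for DHA over control and 2.42 for CCCP plus DHA over CCCP.

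Regulators next to these factors were read from lists of the same pathway. These lists were chosen with earlier results of these data known, so their shares are descriptions only. Of 9 genes listed as other eIF2 and translation regulators, 3 (33.3%) were at least 1.5-fold higher with CCCP plus DHA than in control. The share of all measured genes was 11.1%. The 3 were PPP1R15A, which acts on eIF2, and ATF4 and DDIT3, which lie downstream of it. The median log2 ratio of the 9 was 0.31. ATF4, the transcription factor translated when eIF2 is phosphorylated, was at 342 FPKM in the CCCP plus DHA library, 129 with CCCP, 229 with DHA and 104 in control, a CCCP plus DHA to control ratio of 3.28 (3.17 to 3.38). DDIT3, its target CHOP, was at 63.0, 7.37, 12.7 and 5.50 FPKM in the same libraries, with a ratio of 11.4 (9.61 to 13.7). PPP1R15A, the phosphatase subunit GADD34 that reverses eIF2 phosphorylation, was at 131, 42.9, 41.7 and 27.4 FPKM, with a ratio of 4.77 (4.52 to 5.04). PPP1R15B, its constitutive counterpart, had a ratio of 1.24 (1.15 to 1.34).

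Of 15 measured cap and poly(A) regulators, 2 (13.3%) were at least 1.5-fold higher with CCCP plus DHA and none lower, beside 11.1% and 12.7% of all measured genes. The median log2 ratio of the 15 was 0.07. MKNK2, a kinase that phosphorylates eIF4E, was at 59.0 FPKM in the CCCP plus DHA library, 21.8 with CCCP, 26.6 with DHA and 18.7 in control, a CCCP plus DHA to control ratio of 3.16 (2.997 to 3.33). The other was EIF4EBP3, at 1.01 FPKM or less in each library and with an interval of 1.51 to 62.2. PABPC1, the poly(A)-binding protein, was at 496, 421, 415 and 335 FPKM in the CCCP plus DHA, CCCP, DHA and control libraries, with a ratio of 1.48 (1.46 to 1.503). The 10 other measured elongation genes had a median of 0.20, and 2 (20%) passed 1.5-fold upward, beside 11.1% of all measured genes. These were DPH5, a diphthamide synthesis enzyme that modifies eEF2, at a log2 ratio of 1.00, and EIF5A2 at 0.75.

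None of 9 genes listed under alternative initiation or 5 termination and recycling factors was 1.5-fold higher or lower with CCCP plus DHA. Over all measured genes 11.1% were higher and 12.7% lower. The median log2 ratios of these 2 lists were -0.00 and 0.05. Among 9 mitochondrial translation factors, 1 (11.1%) was at least 1.5-fold higher, the same share as the 11.1% of all measured genes. It was MTIF2, a mitochondrial initiation factor, at a log2 ratio of 0.80. The median over those 9 was 0.26. TUFM, the mitochondrial elongation factor, was at 74.7 FPKM in the CCCP plus DHA library, 73.4 with CCCP, 72.2 with DHA and 64.4 in control.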

How the data were processed

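The authors deposited 1 table of FPKM per library, for 58735 genes, per the file headers. Libraries were made from total RNA with an Illumina TruSeq kit, per the labels' protocols; the aligner, counter, annotation and build were not stated in the sources used here. Multiplying FPKM by union exon lengths from GENCODE 29 gave, in each library, multiples of 1 read's worth for 100% of genes above 0 (tolerance 0.01 reads), so read counts could be recovered for depth, counting intervals and limma-voom. How the authors' counting treated overlapping genes, near-identical copies and strand is not known, so such genes are uncertain.

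Ratios were taken on log2(FPKM + 0.5), a scale that understates the change of low genes, over the 13678 genes that reached 1 FPKM in any library, and called at 1.5-fold. Intervals are exact Clopper-Pearson at 95%, on ratios that carry no pseudocount. PCR duplicates are not independent molecules, so these cover counting error only. The additive fit was limma-trend. Its trial on simulated data used additive effects only, so that trial does not cover genes that depart from additivity. The members and gene lists were chosen with earlier results of these data known. Members given values in every library included the 8 highest and 8 lowest for CCCP plus DHA against control among those averaging 5 FPKM or more, the 4 highest and lowest in other contrasts, the 5 most and least abundant, and all eIF2, eIF2B, kinase and 4E-binding genes; others were named for their role. Promoter entries are RefSeq sequences for GRCh38.p14; where a gene had several starts, 1 start with a run or motif sufficed, for members and for all measured genes. Alternatives were pseudocounts of 0.1 and 1, no filter on low values, a minimum mean of 5 FPKM, median-of-ratios and equal-total scaling, a 2-fold rule, protein-coding genes, limma without trend, limma-voom and, chosen after seeing the data, adding near-identical copies. Ratios and intervals were computed in Python 3.11.15 (scipy 1.17.1, pandas 2.3.3, numpy 2.4.6), the fits in R 4.3.3 (limma 3.58.1), and figures with matplotlib 3.10.9.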

Additional observations from a re-analysis of the deposited data

Results flagged for a closer look

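EIF5, the GTPase-activating factor of initiation, had opposite responses to CCCP with and without DHA. CCCP plus DHA over DHA gave a ratio of 1.46, while CCCP over control gave a ratio of 0.688, and the departure from additivity was 1.07 on the log2 scale. With 1 library per group the difference was not tested.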

How the results depend on the processing

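Of the summary values recomputed under the alternatives, 93 kept their direction and stayed within the limits set, 17 moved and 1 reversed; of the values of single members, 1845 kept within them, 125 moved and none reversed. With a mean of at least 5 FPKM, which tests 44 members, the median log2 ratio of CCCP plus DHA to control was 0.396. The counts of members at least 1.5-fold apart were 0 for CCCP against control and 2 for CCCP plus DHA against DHA. Over all genes so filtered, 4.01% were higher and 3.45% lower in the first comparison, and 3.79% and 8.03% in the second. Scaling to equal FPKM totals gave 3 members for CCCP (1 higher, 2 lower), a CCCP median of -0.013 (all measured genes -0.0959), a DHA median of 0.089 (all genes -0.0860) and a median departure of 0.199 (all genes 0.161), with 4 members at least 1.5-fold above the sum. It also gave 10 members higher for CCCP plus DHA against CCCP, beside 11.02% of all genes, and 5 against DHA, beside 8.99%. None was lower in either, beside 10.4991% of all genes against CCCP and 8.0986% against DHA. For CCCP against control, 6.18% of all genes were higher and 8.95% lower under this scaling. A 2-fold rule gave 4 members for CCCP plus DHA against control, 0 for DHA against control, 3 for CCCP plus DHA against CCCP and 1 against DHA. Members past an adjusted p of 0.05 in the additive fit, 0 for either compound with limma-trend, numbered 2 for CCCP and 4 for DHA without a filter (where limma warned that its variance estimates were unreliable), 4 and 5 with equal totals, 1 and 0 with protein-coding genes, and 2 and 4 with limma-voom. All of these were higher. Over all genes, those called higher without a filter were 474 for CCCP and 424 for DHA, of 58735. They were 185 and 178 of 13706 with equal totals, 85 and 50 of 10896 with protein-coding genes, and 297 and 232 of 13678 with limma-voom. The cause of these differences between settings was not tested. Adding reads of near-identical copies left the counts for CCCP plus DHA against control at 16 higher and 2 lower. It gave 5 higher for DHA against control, beside 4.44% of all genes. It put 1 member 1.5-fold below the sum of the single compounds, beside 11.2% of all genes. No paired analysis was possible because each group has 1 library, and for the same reason no library could be left out of a comparison. EIF4A1 and EIF3C, with 86 and 127 reads in their lowest library, had the fewest reads among measured members.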

Other observations

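The lists of neighbouring genes held a few values not given above. Among the genes listed under alternative initiation, EIF1AD was at 9.004 FPKM in the CCCP plus DHA library, 7.29 with CCCP, 11.9 with DHA and 12.3 in control. Its CCCP to control ratio was 0.594 (95% interval 0.525 to 0.670). ABCE1, which recycles ribosomal subunits, was at 26.5 FPKM with CCCP plus DHA, 17.1 with CCCP, 22.3 with DHA and 22.1 in control, lowest with CCCP alone as EIF5, EIF3J and EIF1AX were. ATF5, a stress-response transcription factor, was at 7.16, 3.61, 5.83 and 5.69 FPKM in the CCCP plus DHA, CCCP, DHA and control libraries, again lowest with CCCP alone. LARP1, which binds mRNAs with a pyrimidine start, was at 44.9 FPKM with CCCP plus DHA, 32.2 with CCCP, 37.7 with DHA and 33.3 in control. These genes were chosen for mention after their values were seen, and no difference between these libraries was tested.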
